A study of Mus musculus with 7 samples.

Results

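The 5 genes described here carry nitric oxide and cyclic GMP signalling in smooth muscle: Nos3, Gucy1a1, Gucy1b1, Prkg1 and Pde5a. They were chosen by name, and the array holds 11 probe sets that the platform annotation assigns to 1 of these genes alone, out of 45037 probe sets and 18193 genes. The brightest probe set over the 7 arrays stood for each gene. The arrays came from 3 adult male bladders (Theiler stage 28), 3 male bladders of postnatal day 1 (Theiler stage 27) and 1 pool of whole newborn animals, 4 males and 4 females, also of postnatal day 1. All animals were FVB/N mice. The bladder donors of both ages carried the SMGA/EGFP transgene, a fluorescent reporter built on the smooth muscle gamma-actin gene (Actg2). The pooled whole animals were wild type, so organ, sex and genotype cannot be told apart in comparisons with them, and for adult bladders age cannot either. The title of the pool names bladders, but its source and dissection notes describe whole animals, and it is treated as such. Adult bladders were kept in liquid nitrogen and day 1 bladders in a freezer, so age and storage cannot be told apart. The labels do not say whether the bladders of 1 age came from separate litters, and p-values measure the spread between these samples.

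Nitric oxide made by nitric oxide synthases diffuses into smooth muscle and binds the haem of soluble guanylate cyclase, a dimer of an alpha and a beta subunit that turns GTP into cyclic GMP. Cyclic GMP activates protein kinase G, which lowers cytosolic calcium and the calcium sensitivity of the contractile machinery, and the muscle relaxes. Phosphodiesterase 5 ends the signal by cleaving cyclic GMP and is the target of sildenafil and tadalafil. In the lower urinary tract the pathway is best known for relaxing the urethra, the bladder neck and blood vessels.

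The sequences around the transcription starts are shown because the cyclase subunits, which did not stand out in bladder, are neighbours in the genome. The brightest probe sets of Pde5a and Prkg1 read higher in every bladder than in whole newborns. For Prkg1 that difference passed the test described below in adult bladder alone. RefSeq promoters of GRCm38.p6, with 250 bases before and 50 after the start, were found for 4 of the 5 genes. Gucy1b1 and Gucy1a1 lie next to each other among the protein-coding genes of chromosome 3, both on the minus strand. Each sequence runs 5′ to 3′ at the first listed start of the gene, and capitals mark GGGCGG, the core of the GC box bound by Sp1-type factors.
Gucy1a1, chr3:82145601-82145900, minus strand: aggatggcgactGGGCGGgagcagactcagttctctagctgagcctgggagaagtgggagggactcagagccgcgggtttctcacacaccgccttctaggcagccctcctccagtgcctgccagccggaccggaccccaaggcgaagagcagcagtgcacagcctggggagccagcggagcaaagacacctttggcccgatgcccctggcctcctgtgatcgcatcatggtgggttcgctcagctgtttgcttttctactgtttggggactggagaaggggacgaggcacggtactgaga
Gucy1b1, chr3:82074662-82074961, minus strand: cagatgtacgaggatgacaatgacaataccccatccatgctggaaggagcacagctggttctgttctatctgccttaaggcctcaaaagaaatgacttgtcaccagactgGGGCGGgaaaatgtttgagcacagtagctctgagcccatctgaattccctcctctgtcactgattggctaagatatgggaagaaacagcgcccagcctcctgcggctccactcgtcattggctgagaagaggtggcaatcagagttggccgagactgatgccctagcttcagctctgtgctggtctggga
Prkg1, chr19:31764984-31765283, minus strand: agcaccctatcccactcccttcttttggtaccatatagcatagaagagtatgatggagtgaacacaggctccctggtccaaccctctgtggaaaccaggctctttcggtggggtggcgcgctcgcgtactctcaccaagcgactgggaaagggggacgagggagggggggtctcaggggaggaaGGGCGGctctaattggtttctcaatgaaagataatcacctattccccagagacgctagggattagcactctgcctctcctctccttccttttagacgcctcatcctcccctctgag
Pde5a, chr3:122728908-122729207, plus strand: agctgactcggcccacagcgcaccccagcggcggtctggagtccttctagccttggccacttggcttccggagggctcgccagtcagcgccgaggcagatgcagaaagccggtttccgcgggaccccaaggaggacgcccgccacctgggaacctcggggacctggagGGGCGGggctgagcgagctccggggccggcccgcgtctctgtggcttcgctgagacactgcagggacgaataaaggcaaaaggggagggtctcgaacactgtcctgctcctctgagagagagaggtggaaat
Searched on both strands, each of these 4 promoters holds GGGCGG once, while 35.7% of all 32851 promoters of the same length hold it at least once. RefSeq lists a second start for Gucy1a1, whose promoter holds no GGGCGG, and for Prkg1, whose promoter holds 1. In the 4 promoters printed, the match lies at -82 to -77 from the start of Pde5a and at -66 to -61 from that of Prkg1. It lies at -140 to -135 from the start of Gucy1b1 and at -238 to -233 from that of Gucy1a1. Neither the CArG box, bound by serum response factor in many smooth muscle genes, nor TATAAA was found in any of these 6. Of all promoters, 1.63% held a CArG box and 13.6% held TATAAA. A match describes letters only, and no match says only that these letters are not in this window.

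The deposited values are 1-colour intensities on a linear scale, with the same mean on every array once the highest and lowest 2% are set aside. Median intensities ran from 226 to 312 in adult bladders and from 209 to 290 in day 1 bladders, and the whole-newborn array stood at 434. The mean log2 value of 12 smooth muscle markers was 14.42 to 14.97 in adult and 14.37 to 14.88 in day 1 bladders, against 11.53 in whole newborns. That of 9 urothelial markers was 12.77 to 13.26 in adult and 12.53 to 13.08 in day 1 bladders, against 10.08, so both lists go with the tissue labels. Adult replicates 1 and 3 also held transcripts of male accessory glands, with a mean log2 value of 9.35 and 9.36 over 11 such markers, while adult replicate 2 stood at 6.35 and day 1 bladders at 6.28 to 6.46. Among the adult bladders, the mean log2 value of the neuron markers was lowest in replicate 2 (8.04, against 9.60 and 9.53 in replicates 1 and 3). Hybridization spike-ins were strongest in adult replicate 2, at 2.16 times the lowest array. In these bulk samples, fewer cells of a type and less RNA per cell cannot be told apart.

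The comparison of adult with day 1 bladder addresses how the organ changes with maturation. Of the 5 genes, 1 passed the test: Pde5a was higher in adult bladder, at 41817 ± 3477 against 19212 ± 3662 in day 1 bladder (SD, n = 3 each). Nos3, both cyclase subunits and Prkg1 did not pass, and for each of them the values of the ages overlapped. All 5 were bright enough to be tested. Of 11930 genes tested, 8.97% were called, and 4.02% were called higher in adult bladder, which is the background for 1 call among 5 genes. Differences are on the log2(intensity + 49) scale, adult minus day 1, and calls are at a Benjamini-Hochberg adjusted p under 0.05 in limma over all 23304 probe sets tested. Values of an age are listed in the order of replicates 1 to 3. The median difference was -0.05 over the 5 genes and -0.01 over all genes tested.

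Nos3, the nitric oxide synthase of endothelium, read 331, 309.6 and 411 in adult bladders and 263, 396 and 448 in day 1 bladders. These are dim values on a single probe set, near the middle of each array's range, and the day 1 bladders reach both below and above the adult ones. The log2 difference was -0.05, with a 95% interval from -0.88 to 0.79 (adjusted p = 0.959). Of 14 endothelial markers tested, 0 were called higher and 0 lower by limma, and 2 had an unadjusted p under 0.05. The lowest adjusted p was that of Cdh5, the cadherin of endothelial junctions (log2 difference -1.08, adjusted p = 0.0645), while Ptprb, a phosphatase of endothelial junctions, ran the other way (0.76, adjusted p = 0.0892). Set against the mean of the endothelial markers on the same array, Nos3 stood at -1.42 ± 0.16 log2 units in adult and -1.51 ± 0.55 in day 1 bladder (SD, n = 3 each). The difference of 0.08 had an exact permutation p of 0.9, two-sided, where 3 against 3 samples cannot go below 0.1.

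Gucy1a1, the alpha subunit of soluble guanylate cyclase, read 3015, 2048 and 2984 in adult bladders and 3375, 2940 and 2985 in day 1 bladders. Adult replicate 2 was the lowest of the 6 arrays, and the other 5 lay close together. The log2 difference was -0.22 ± 0.27 (SE), with a 95% interval from -0.83 to 0.38 (adjusted p = 0.671). Its other 2 probe sets, both dimmer, gave 0.17 and -0.12 (adjusted p = 0.847 and 0.882).

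Gucy1b1, the haem-binding beta subunit, read 1243, 606 and 1058 in adult bladders and 1312, 991 and 847 in day 1 bladders. Here too adult replicate 2 was the lowest array. The log2 difference was -0.15 ± 0.36 (SE), with an interval from -0.95 to 0.65 (adjusted p = 0.85). Its second probe set, above the array median on 3 of 7 arrays, read 194, 768 and 374 in adult bladders and 264, 181 and 153 in day 1 bladders. On it adult replicate 2 was the highest array, and the difference of 0.84 did not pass (adjusted p = 0.361). The probe sets of Gucy1b1 thus placed adult replicate 2 at opposite ends of the range, and their mean gave a difference of the other sign, 0.35 (adjusted p = 0.47). The sign also turned without adult replicate 2 (0.14) and without day 1 replicate 1 (0.019), and no direction is read from it.

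Prkg1, which encodes cyclic GMP-dependent protein kinase I, read 9030, 8899 and 9686 in adult bladders and 7435, 9761 and 9475 in day 1 bladders. All adult values lie within the range of the day 1 values. The log2 difference was 0.06 ± 0.22 (SE), with a 95% interval from -0.43 to 0.55 (adjusted p = 0.904). That interval was the narrowest among the 4 genes that did not pass. The second probe set of Prkg1 was far dimmer and scattered within each age, at 313, 1166 and 193 in adult bladders and 369.5, 662 and 1431 in day 1 bladders. Its difference was -0.68, with an interval from -2.15 to 0.78.

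Pde5a, the phosphodiesterase that cleaves cyclic GMP, read 42490, 38053 and 44909 in adult bladders and 22955, 19044 and 15636 in day 1 bladders on its brightest probe set, 1458341_x_at. Every adult array lay above every day 1 array, as was the case for 15.8% of the genes tested (32.3% had no overlap either way). The means differed 2.18-fold, and the log2 difference was 1.13 ± 0.20 (SE), with a 95% interval from 0.68 to 1.59 (adjusted p = 0.0112). The call was lost without adult replicate 1 (1.12, adjusted p = 0.0556) or adult replicate 3 (1.08, adjusted p = 0.0674), with nearly the same difference. Without both, which are the arrays with accessory gland transcripts, adult replicate 2 alone stood 1.00 above the day 1 bladders (adjusted p = 0.166), and it was assumed to vary like them.

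The suffix of 1458341_x_at marks a probe set whose probes may also match other transcripts, so the other Pde5a probe sets are given too. 1460118_at read 5090, 5006 and 3006 in adult bladders and 644, 2241 and 1077 in day 1 bladders. The ages again did not overlap, and the log2 difference was 1.82 ± 0.44 (SE, adjusted p = 0.0379). That call was lost with median centring (1.81, adjusted p = 0.0689), without adult replicate 2 (1.71, adjusted p = 0.0772) and without adult replicate 2 and day 1 replicate 3 together (1.65, adjusted p = 0.117). Only these 3 alternatives were looked at for this probe set, and the others are not reported for it. 1455970_at read 25583, 6427 and 28484 in adult bladders and 9029, 9279 and 9514 in day 1 bladders. Adult replicate 2 lay below all day 1 bladders there, while adult replicates 1 and 3 lay far above them. The difference of 0.85 did not pass (adjusted p = 0.339), and without adult replicate 2 it was 1.54 (adjusted p = 0.00315). All 3 probe sets gave a higher mean in adult bladder, 2 of them with a call.

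**Figure D1:**
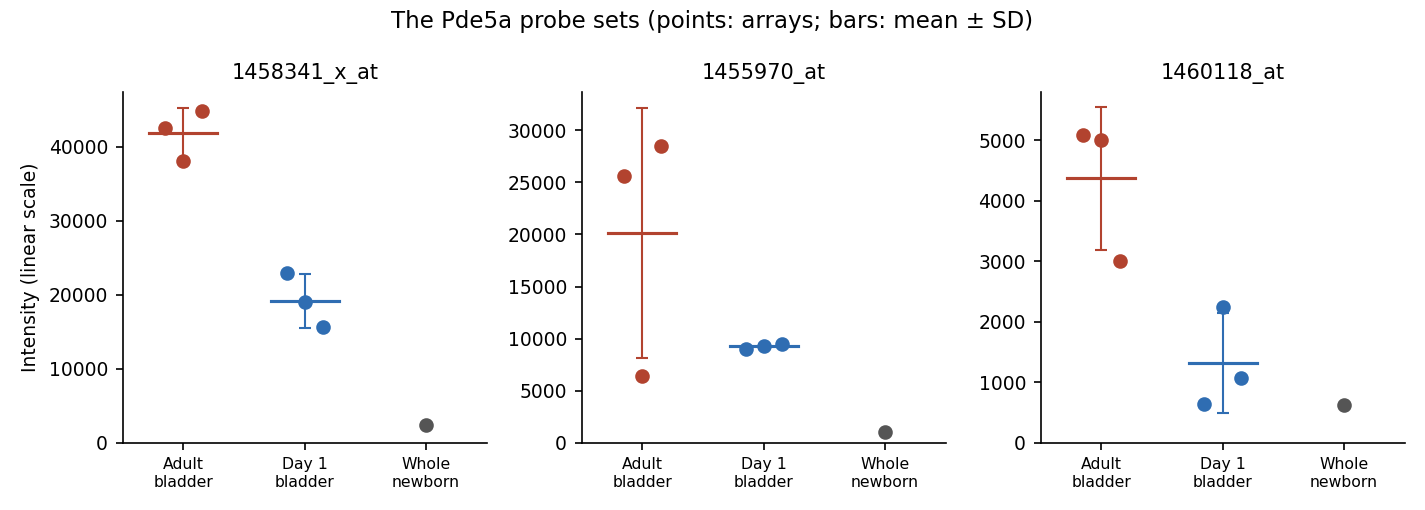
Intensity of the 3 Pde5a probe sets, with 1 point per array and the mean ± SD (n = 3) of adult and day 1 bladder beside the single whole-newborn array. Adult bladders lie above day 1 bladders on 1458341_x_at and 1460118_at, while on 1455970_at adult replicate 2, at 6427, lies below them.

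**Figure D2:**
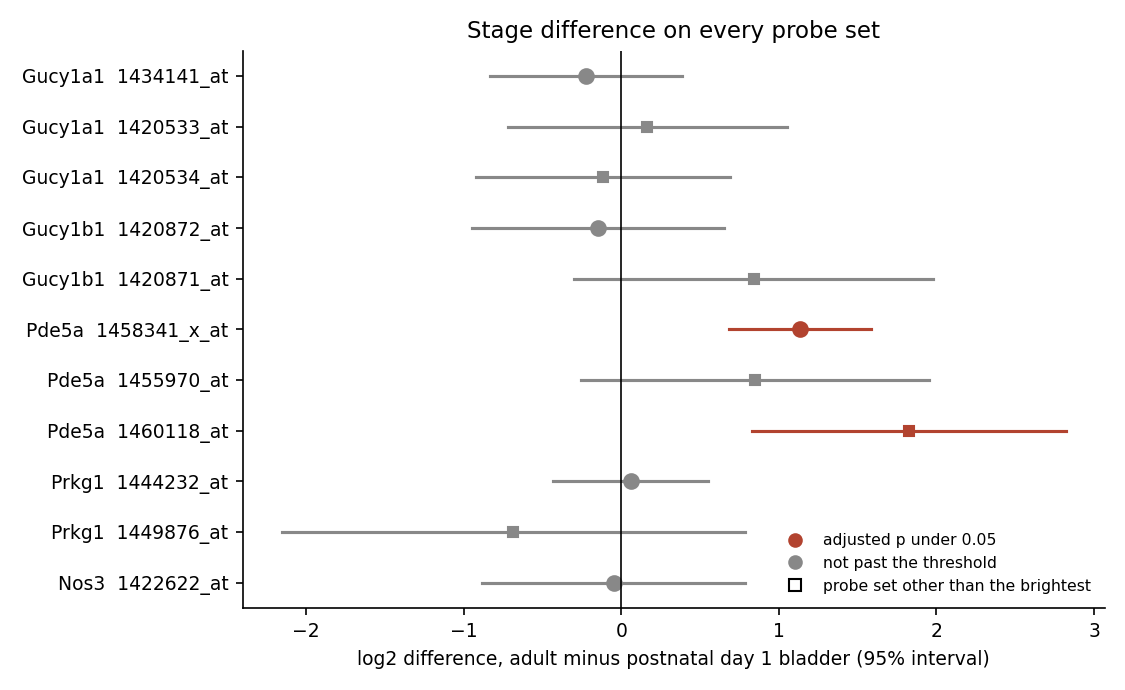
log2 difference of adult minus postnatal day 1 bladder for each of the 11 probe sets of the 5 genes, with 95% intervals that are not adjusted for the number of tests. The intervals of 1458341_x_at and 1460118_at of Pde5a lie above 0, and those of the other 9 probe sets include 0.

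Markers of smooth muscle did not pass the test between the ages: of 12 tested, 0 were called higher and 0 lower by limma, and 1 had an unadjusted p under 0.05. Set against their mean on the same array, Pde5a stood at 0.93, 0.25 and 1.03 log2 units in adult bladders and at -0.39, -0.15 and -0.86 in day 1 bladders. The ages did not overlap on this measure either (difference 1.20, exact permutation p = 0.1, two-sided, the smallest possible). Against the same markers, Gucy1a1 differed by -0.16, Gucy1b1 by -0.08 and Prkg1 by 0.13 (exact permutation p = 0.8, 1.0 and 0.8).

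Markers of other cells also differed between the ages. Of all genes tested, 4.02% were called higher and 4.95% lower in adult bladder. Skeletal muscle markers were lower in adult bladder, with 6 of 6 tested called. Their list mean was 8.27 to 8.44 in adult and 11.48 to 12.71 in day 1 bladders. Of these 6, Myh3, Myh8, Tnnt3 and Tnnc2 lay below the array median in all adult bladders. They were tested only through the day 1 bladders, where they were high, so the filter favoured a lower call for them. Of 9 neuron markers, 2 were lower in adult bladder and 0 higher. Those 2, Elavl3 and Phox2a, lay below the array median in all adult bladders and were likewise tested only through the day 1 bladders. The mean of the neuron list was 8.04 to 9.60 in adult and 10.28 to 10.85 in day 1 bladders. Of 6 pericyte markers, 2 were higher in adult bladder, the potassium channel subunits Kcnj8 (1.12, adjusted p = 0.0382) and Abcc9 (1.20, adjusted p = 0.0285). The mean log2 value of that list was 12.46 to 12.80 in adult and 11.996 to 12.55 in day 1 bladders. Of 8 fibroblast and interstitial cell markers, Kit (1.94, adjusted p = 0.00776) and Ano1 (1.43, adjusted p = 0.0238) were higher and Col1a1 (-1.98, adjusted p = 0.00605) lower, and the list mean was 13.25 to 13.49 in adult and 12.84 to 13.46 in day 1 bladders. The ratio of 3′ to 5′ Actb signal, a measure of RNA quality, was 3.84 to 5.15 in adult and 1.85 to 3.70 in day 1 bladders. That of Gapdh ran the other way, at 15.3 to 19.6 in adult and 19.1 to 30.9 in day 1 bladders. The part of these cells and of RNA quality in the Pde5a difference was not tested.

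**Figure D3:**
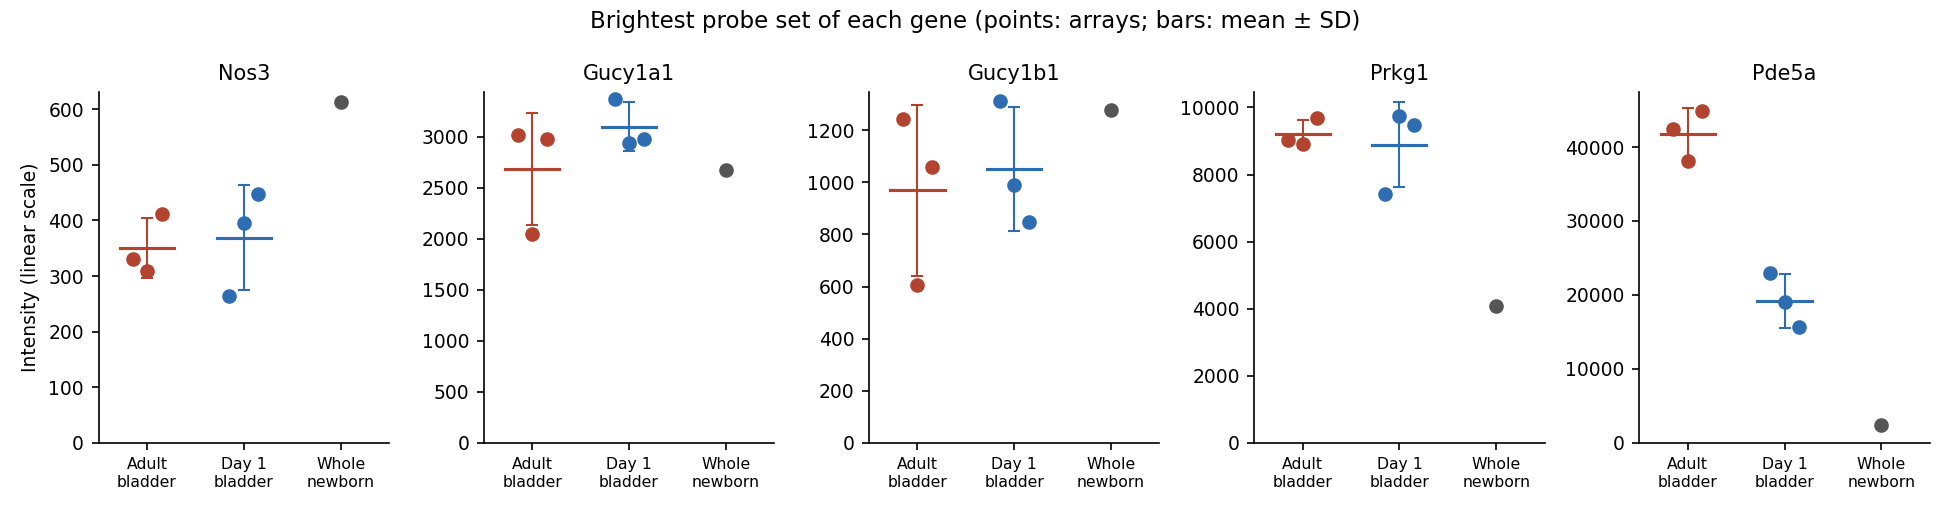
Intensity of the brightest probe set of each of the 5 genes, with 1 point per array and the mean ± SD (n = 3) of adult and day 1 bladder beside the single whole-newborn array. Adult and day 1 values are apart for Pde5a and overlap for the other 4 genes, and for Prkg1 and Pde5a the whole-newborn array lies below all 6 bladders.

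Both ages were also set against the whole-newborn array, which for adult bladder is a difference of age as well as of organ. With a single array on that side, its spread was assumed to equal that of the bladders. Of the 5 genes, 2 were called in adult bladder, Pde5a and Prkg1, where 15.3% of 13504 genes were called. In day 1 bladder 1 was called, Pde5a, where 9.58% of 13745 genes were called. The comparisons share the newborn array.

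Pde5a read 2358 on 1458341_x_at in whole newborns, and the mean was 17.7-fold higher in adult and 8.15-fold higher in day 1 bladder. The log2 differences were 4.12 ± 0.29 in adult (SE, adjusted p = 0.000152) and 2.98 ± 0.29 in day 1 bladder (SE, adjusted p = 0.000755), and both were called in each of 17 alternatives. 1455970_at read 1072 in whole newborns, with differences of 3.91 in adult (adjusted p = 0.00859) and 3.06 in day 1 bladder (adjusted p = 0.0333). 1460118_at read 619.8, with 2.68 in adult (adjusted p = 0.027) and 0.86 in day 1 bladder, where it did not pass (adjusted p = 0.479).

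Prkg1 read 4091 in whole newborns, below all 6 bladders. The log2 difference was 1.16 ± 0.30 in adult (SE, adjusted p = 0.04) and 1.10 ± 0.30 in day 1 bladder (SE, adjusted p = 0.0626). The adult call held in 11 of 17 alternatives. It was lost without adult replicate 1 (1.17, adjusted p = 0.0995), adult replicate 3 (1.12, 0.123), day 1 replicate 2 (0.0603) or day 1 replicate 3 (0.0534). The day 1 difference passed in 5 of 17, among them without adult replicate 2 (adjusted p = 0.0444). The dim second probe set gave -0.06 in adult and 0.62 in day 1 bladder, with intervals from -2.18 to 2.05 and from -1.50 to 2.74.

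The cyclase subunits and Nos3 were not called in bladder against whole newborns. Gucy1a1 read 2672 in whole newborns, within the range of the bladders, with log2 differences of -0.02 in adult (95% interval -0.86 to 0.83) and 0.21 in day 1 bladder (-0.64 to 1.06). Gucy1b1 read 1280, also within the range of the bladders, with -0.44 in adult (-1.60 to 0.72) and -0.30 in day 1 bladder (-1.45 to 0.86). Nos3 read 614, above all 6 bladders, with -0.74 in adult (-1.92 to 0.44, adjusted p = 0.417) and -0.69 in day 1 bladder (-1.85 to 0.47, adjusted p = 0.483). Centring the arrays on their medians moved the median gene to 0.64 in the adult comparison (-0.03 as deposited) and to 0.68 in the day 1 comparison (-0.003 as deposited). With it the differences of Gucy1b1 (0.23 in adult and 0.39 in day 1 bladder) and of Gucy1a1 in adult bladder (0.65) had the other sign, without a call.

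Set against the smooth muscle markers of the same array, the genes differed in how they sat. Those markers were 3.08 log2 units higher in adult and 3.15 higher in day 1 bladder than in whole newborns. Pde5a stood at 0.74 ± 0.43 in adult bladder, -0.46 ± 0.36 in day 1 bladder and -0.30 in whole newborns, so in day 1 bladder it exceeded whole newborns about as much as the markers did. Prkg1 stood at -1.44 ± 0.36 in adult bladder, -1.56 ± 0.45 in day 1 bladder and 0.48 in whole newborns. Gucy1a1 stood at -3.22 ± 0.62, -3.06 ± 0.21 and -0.12 in the same order, and Gucy1b1 at -4.68 ± 0.82, -4.60 ± 0.34 and -1.16 (SD, n = 3 for each bladder group). Relative to the markers, Prkg1, Gucy1a1 and Gucy1b1 were thus lower in bladders of both ages than in whole newborns, a description with no test.

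**Figure D4:**
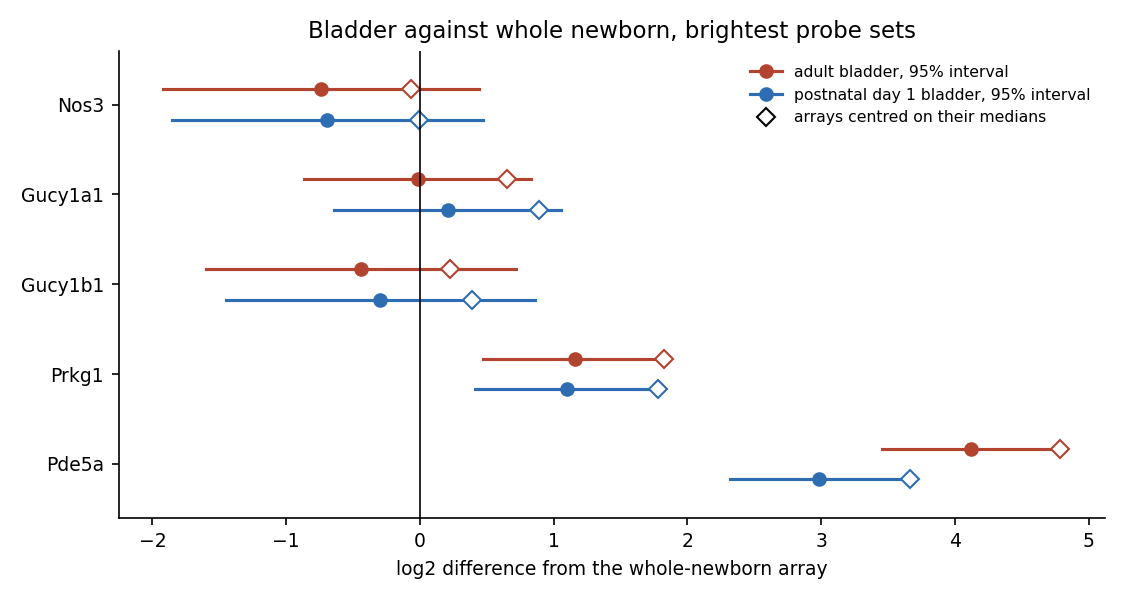
log2 difference of adult bladder and of postnatal day 1 bladder from the single whole-newborn array for the brightest probe set of each gene, in red and blue, with 95% intervals from limma that are not adjusted for the number of tests, and open diamonds for the difference after centring the arrays on their medians. The intervals of Pde5a and Prkg1 lie above 0, and those of Nos3, Gucy1a1 and Gucy1b1 include 0.

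Beyond the 5 genes, a list of 55 others of the pathway was followed, of which 53 had a probe set that the annotation assigns to the gene alone. Between adult and day 1 bladder 40 could be tested, and 5 were higher and 2 lower in adult bladder, where 4.02% of all genes were called higher and 4.95% lower. The median difference of the list was 0.10. With median centring 3 were higher and 2 lower, where 6.36% of all genes were called. The count of 7 fell to 4 without adult replicate 1, without adult replicate 3 or without day 1 replicate 2, where 3.52%, 3.22% and 4.59% of all genes were called.

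Upstream of the cyclase, 2 of 15 tested genes of nitric oxide synthesis were lower in adult bladder and 0 were higher. Over all genes tested, 4.95% were called lower and 4.02% higher. Ddah1, which breaks down the endogenous synthase inhibitor asymmetric dimethylarginine, read 556, 585 and 954 in adult bladders and 3230, 5305 and 3144 in day 1 bladders. Its log2 difference was -2.40 ± 0.34 (SE, adjusted p = 0.00461). A second probe set read 4.34, 28.4 and 8.91 in adult bladders, below the array median, and 2389, 1367 and 1181 in day 1 bladders. It gave -4.71 (adjusted p = 0.000943). It was tested only through the day 1 bladders, so the filter favoured a lower call, and the size depends on the constant added before log2. The remaining probe sets of Ddah1 were not tested between the ages. Slc7a1, a carrier that brings arginine into cells, read 7993, 6713 and 7886 in adult bladders and 14847, 19552 and 25607 in day 1 bladders. Its difference was -1.37 ± 0.25 (SE, adjusted p = 0.012), and the call was lost without adult replicate 3 and with adult replicate 2 as the sole adult array (adjusted p up to 0.11). Nos1, the neuronal synthase of nitrergic nerves, read 939, 349 and 1023 in adult bladders and 1785, 2064 and 1595 in day 1 bladders. The ages did not overlap, but the difference of -1.31 did not pass (adjusted p = 0.0865). The mean of the neuron markers was likewise lower in all 3 adult bladders than in any day 1 bladder, with a difference of -1.51. It was lowest in adult replicate 2, as was Nos1. Single markers varied: Uchl1, Elavl4 and Snap25 overlapped between the ages. Uchl1, Phox2a and Th were not lowest in adult replicate 2. Their part in the Nos1 values was not tested. Nos2, the inducible synthase, lay below the array median on all 7 arrays and was not tested.

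Gucy1a2, the alternative alpha subunit of the cyclase, read 517, 357 and 215 in adult bladders and 1218, 641 and 424 in day 1 bladders. The ages overlapped, and the difference of -0.92 did not pass (adjusted p = 0.268). Of 8 genes of natriuretic peptides, their receptors and membrane-bound cyclases, 2 could be tested between the ages and 0 were called by limma, 1 of them with an unadjusted p under 0.05. Npr2, a natriuretic peptide receptor that is itself a cyclase, differed by 0.24 (adjusted p = 0.651), and Npr3, the clearance receptor, by -0.92 (adjusted p = 0.182).

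Among 7 tested genes of phosphodiesterases or their subunits other than Pde5a, 1 was higher in adult bladder and 0 lower. The shares over all genes tested were 4.02% higher and 4.95% lower. Pde3b, which cleaves cyclic AMP and is inhibited by cyclic GMP, read 18355, 19744 and 15396 in adult bladders and 9111, 6968 and 6572 in day 1 bladders. Its log2 difference was 1.24 ± 0.23 (SE, adjusted p = 0.0122) on a single probe set. The call was lost without adult replicate 1, without day 1 replicate 2 and with adult replicate 2 as the sole adult array (adjusted p up to 0.117). Pde2a, which cyclic GMP stimulates, read 13864, 21397 and 11926 in adult bladders and 9143, 9045 and 7890 in day 1 bladders, and its difference of 0.81 did not pass (adjusted p = 0.0908).

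Downstream of cyclic GMP, 4 of 15 tested kinase partners, substrates and effectors were higher in adult bladder and 0 lower. Of all genes tested, 4.02% were called higher and 4.95% lower. Mrvi1, the substrate through which the kinase restrains the inositol trisphosphate receptor, read 27020, 29667 and 27391 in adult bladders and 12972, 9035 and 7784 in day 1 bladders. Its log2 difference was 1.52 ± 0.23 (SE, adjusted p = 0.00649), and its second probe set gave 1.91 (adjusted p = 0.00995). Rgs2, a brake on Gq-coupled receptors that the kinase activates, read 48545, 51528 and 50023 in adult bladders and 23051, 11729 and 18098 in day 1 bladders. The difference was 1.56 ± 0.25 (SE, adjusted p = 0.00775), and 2 of its other 3 probe sets passed too, at 2.22 and 2.77. Ddah1, Mrvi1 and Rgs2 kept their calls in 18 of 19 alternatives each, the exception being adult replicate 2 as the sole adult array. Pln, phospholamban, which holds back the calcium pump of the sarcoplasmic reticulum, differed by 1.44 (adjusted p = 0.0394), but was called in 9 of 19 alternatives, and its other 2 probe sets gave 0.77 and 0.33 without a call. Abcc4, an exporter of cyclic nucleotides, differed by 1.01 (adjusted p = 0.0251) and was called in 11 of 19. Kcnma1, the pore of the large-conductance potassium channel that the kinase opens, read 3472, 3510 and 3447 in adult bladders and 2857, 1495 and 1712 in day 1 bladders, and its difference of 0.82 did not pass (adjusted p = 0.135). Its other tested probe sets gave -0.38 and 0.48 without a call.

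Against whole newborns, 9 of 15 tested kinase partners and effectors were higher in adult bladder and 1 lower, where 6.1% of all genes were called higher and 9.23% lower. In day 1 bladder 9 were higher and 1 lower, where 3.19% of all genes were called higher and 6.39% lower. Of the 12 smooth muscle markers, 10 were called higher in adult and 9 in day 1 bladder, and their part in these counts was not tested. Mrvi1 read 1019 in whole newborns and was 4.71 higher in adult (adjusted p = 0.000152) and 3.19 higher in day 1 bladder (adjusted p = 0.00096). Ppp1r12a, the targeting subunit of myosin phosphatase, read 6481 and was 3.05 higher in adult (adjusted p = 0.000205) and 2.73 higher in day 1 bladder (adjusted p = 0.000438). Its other probe sets gave 2.47, 1.68 and 1.92 in adult and 2.14, 1.26 and 1.18 in day 1 bladder, in the same order. Only the first of them passed, in both comparisons. Ppp1r14a, the inhibitor of that phosphatase, read 38.6 in whole newborns, below the array median, so its differences of 4.22 in adult and 4.23 in day 1 bladder depend on the added 49. Mylk, the myosin light chain kinase, was 2.20 higher in adult (adjusted p = 0.00231) and 2.18 higher in day 1 bladder (adjusted p = 0.00329). Rgs2 was 2.81 higher in adult bladder (adjusted p = 0.00169), while its 1.25 in day 1 bladder did not pass (adjusted p = 0.0705). The day 1 calls of Kcnma1, Kcnmb1 and Rock1 were close to the threshold and held in 6, 8 and 6 of 17 alternatives. Other tested probe sets of Kcnma1 gave 0.38, 0.72 and -3.46 in adult and 0.76, 0.24 and -2.84 in day 1 bladder. None of these passed, and the adult call of Kcnma1 (2.52, adjusted p = 0.00713) was lost with the mean of its probe sets.

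Other pathway genes were lower in bladder than in whole newborns. Prkg2, the other cyclic GMP-dependent kinase, read 316, 497 and 97.4 in adult bladders, against 3218 in whole newborns (-3.41, adjusted p = 0.0298). That call was lost with median centring, without adult replicate 1 and without adult replicate 3 (adjusted p up to 0.0618). Pln, also a heart gene, read 5723 in whole newborns, and day 1 bladder differed from it by -2.65 (adjusted p = 0.0142). That call was lost with median centring (adjusted p = 0.0547). The other probe sets of Pln gave -1.26 and -1.63 in day 1 bladder without a call (adjusted p = 0.303 and 0.133). Nppa, the atrial natriuretic peptide, differed by -3.84 in adult and -3.27 in day 1 bladder (adjusted p = 0.00841 and 0.0219), and lay below the array median in all 6 bladders. Its day 1 call was lost with an added constant of 9 and with median centring (adjusted p up to 0.0772). Gucy2c, the guanylin receptor of the intestine, was also below the median in all 6 bladders, at -4.16 in adult and -3.79 in day 1 bladder (adjusted p = 0.00461 and 0.00975). The arginases, which draw arginine away from nitric oxide synthesis, moved in opposite directions. Arg1, the liver form, differed by -5.93 in adult and -3.99 in day 1 bladder (adjusted p = 0.00139 and 0.0122). Arg2, the mitochondrial form, differed by 3.01 in adult and 2.33 in day 1 bladder (adjusted p = 0.00499 and 0.0217), and its day 1 call was lost without day 1 replicate 2 (adjusted p = 0.0522). In adult bladder Ddah1 (-3.68, adjusted p = 0.00168) and Asl, which releases arginine from argininosuccinate (-1.77, adjusted p = 0.0297), were lower too. The call of Asl was lost with median centring, without adult replicate 1 and without adult replicate 3 (adjusted p up to 0.145).

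Over the whole list, 10 genes were higher and 6 lower in adult bladder, of 45 tested. Of all genes, 6.1% were called higher and 9.23% lower there. In day 1 bladder 10 were higher and 4 lower, of 47 tested, where 3.19% of all genes were called higher and 6.39% lower. With median centring 15 were higher and 4 lower in adult bladder, and 12 were higher and 2 lower in day 1 bladder. Calls over all genes moved the same way with centring. In adult bladder 1689 were higher and 824 lower of 13504, and in day 1 bladder 1059 and 570 of 13745.

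**Figure D5:**
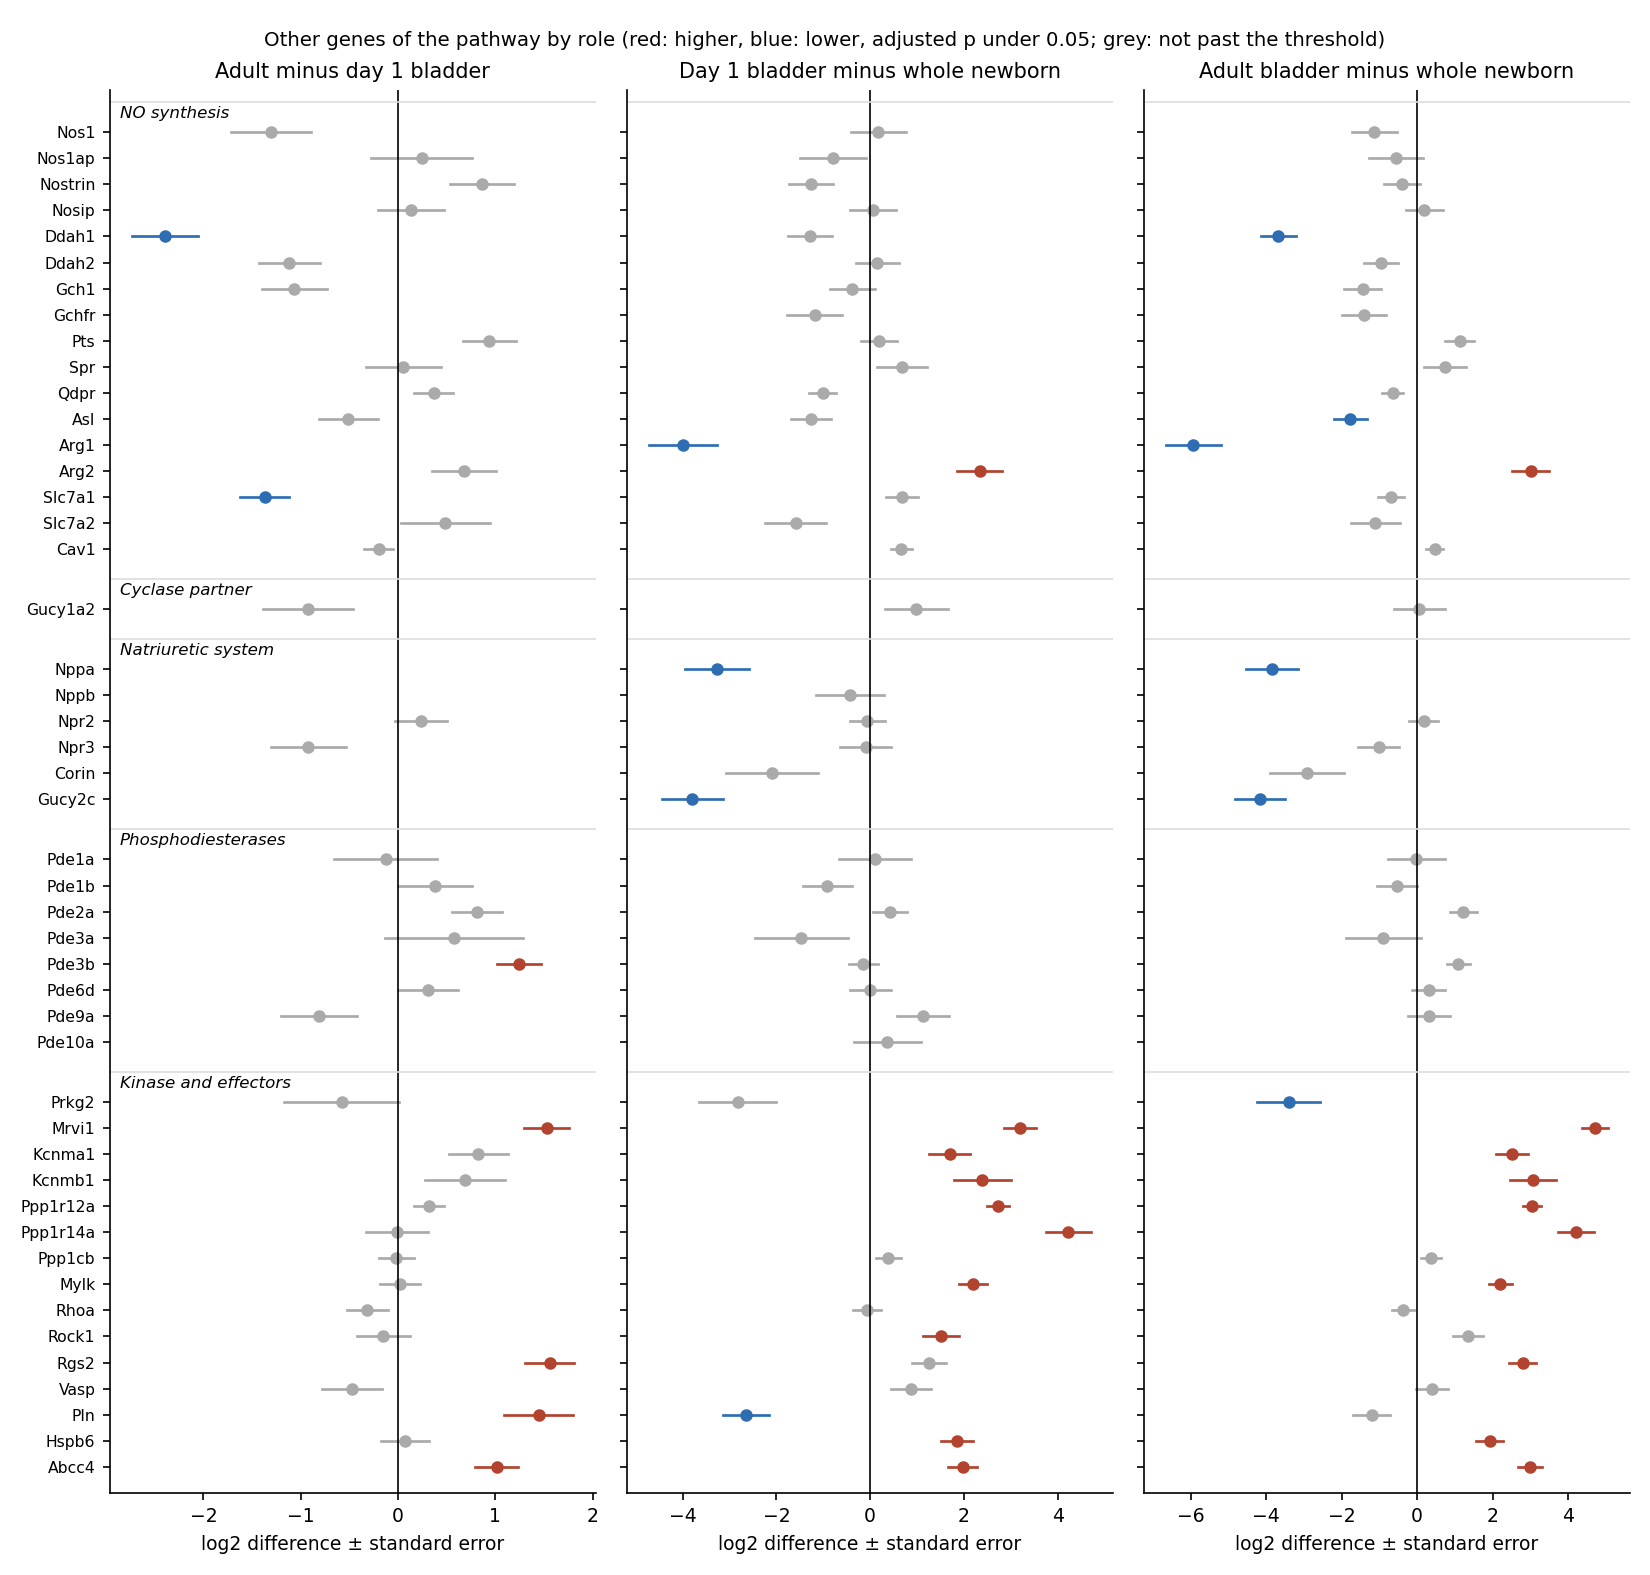
log2 difference with its standard error of the tested pathway genes other than the 5 main ones, grouped by role, for adult minus day 1 bladder and for each age minus whole newborn. Red points passed the test as higher, blue points as lower, and grey points did not pass. The kinase partners and effectors hold 9 genes that passed the test as higher in each comparison with whole newborns.

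The genes most like each of the 5 over the 7 arrays were sought among 11760 others, by the root mean square difference of log2 values after each gene's own mean was taken off. Closest to Pde5a, whose values span 4.22 log2 units, were Rsrp1 (0.12) and Adcy5, an adenylate cyclase (0.22). Rsrp1 read 22748, 18680 and 22352 in adult bladders, 9744, 9978 and 7814 in day 1 bladders and 1327 in whole newborns. Prkg1 was closest to Mepce (0.07) and Tsr1 (0.11), and Gucy1a1 to Apip (0.08) and Ubqln4 (0.08). Gucy1b1 was closest to Trmt61b (0.12) and Nckap5 (0.12), and Nos3 to Ncbp1 (0.09) and Nup205 (0.14). Over 7 arrays in 3 groups this likeness is a description of these arrays.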

How the data were processed

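RNA of 7 samples was amplified in 2 rounds and hybridized to 1-colour Affymetrix mouse arrays, 1 array per sample. The authors deposited linear intensities made with GCOS, per the submitters' processing notes. How probes were summarised is not given in the sources used here. Of 45101 probe sets, 64 controls were left out. Of the rest, 34945 name 1 gene in the platform annotation, 932 several and 9160 none. The number of arrays limits the precision.

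A constant of 49, the rounded 20th percentile of the whole table, was added before log2 was taken, so fold changes of dim genes are understated. Tests used limma 3.58.1 in R 4.3.3 (eBayes with a trend, two-sided, Benjamini-Hochberg over all probe sets tested, threshold 0.05). The comparison of ages used the 6 bladder arrays and probe sets above the array median on at least 3 of them. The comparisons with whole newborns used all 7 arrays in 3 groups and probe sets above the median on at least 1 of the 4 arrays compared. Single values against marker lists were tested by exact permutation (scipy 1.17.1). The fit was tested on simulated data.

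Alternatives were added constants of 9 and 165, median centring, quantile normalization, other filters and variance priors, array weights, the mean of a gene's probe sets, scaling to marker lists and leaving out arrays. Replicates were numbered in the order of the records. Named genes were the 5 main ones, called genes of the pathway list (up to 6 a role, by adjusted p), genes of small roles and the 2 genes most like each main one. Cdh5, Ptprb, Ddah2, Gch1, Pts, Nos1, Nos2, Npr2, Npr3, Pde2a, and Kcnma1, Kcnmb1 and Rock1 beyond that limit were chosen after their values were seen. The 5 genes, the lists and the alternatives were chosen with earlier results of these data known. Itpr1 and Rock2 of the pathway list were not analysed here. Promoters are RefSeq's.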

Additional observations from a re-analysis of the deposited data

How the results depend on the processing

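The difference of Pde5a kept its direction in all 20 alternatives between the ages and in all 17 of each comparison with whole newborns. Its call between the ages held in 17 of 20 (0.99 to 1.27 with 1 array left out) and was lost without adult replicate 1, without adult replicate 3 and, in an alternative chosen after seeing the data, with both left out (1.00, adjusted p = 0.166). Fewer adult arrays remained there. Against whole newborns it was 4.06 to 4.18 in adult and 2.85 to 3.12 in day 1 bladder with 1 array left out. Gucy1a1, Gucy1b1 and Nos3 had no call in any alternative of any comparison, and Prkg1 had none between the ages.

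Signs of small differences turned. Between the ages, Gucy1b1 was 0.030 with array weights, 0.35 with the mean of its probe sets and -0.35 to 0.14 with 1 array left out. It was 0.0073 without both spike-in-rich bladder arrays (adult replicate 2 and day 1 replicate 3). Nos3 was 0.10 with array weights, 0.16 without the spike-in-rich arrays, 0.084 scaled to endothelial markers and -0.24 to 0.091 with 1 array left out. Prkg1 was -0.31 with the mean of its probe sets and -0.064 to 0.13 with 1 array left out, and Gucy1a1 -0.32 to -0.04. In adult bladder against whole newborns, Gucy1a1 was 0.65 with median centring, 0.13 with array weights, 0.16 without the spike-in-rich arrays and -0.11 to 0.16 with 1 array left out. Gucy1b1 was 0.23 with median centring, 0.0061 with the mean of its probe sets and -0.64 to -0.15 with 1 array left out. In day 1 bladder against whole newborns, Gucy1b1 was 0.39 with median centring. The cause was not tested.

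The adult call of Prkg1 against whole newborns was lost without a variance trend (1.16, adjusted p = 0.0996) and with the mean of its probe sets (0.55, adjusted p = 0.534). That left 1 of the 5 genes called, where 13.2% and 18.4% of all genes were, in that order. The adult difference of Prkg1 was 1.12 to 1.18 with 1 array left out. In day 1 bladder Prkg1 passed with median centring (1.78, adjusted p = 0.0315), a filter at the 70th percentile (1.10, adjusted p = 0.048), array weights (1.09, adjusted p = 0.021) and without the spike-in-rich arrays (1.05, adjusted p = 0.0479). That made 2 of the 5 genes called, where 11.9%, 11.8%, 17.1% and 16.4% of all genes were, in that order. The day 1 difference of Prkg1 was 1.03 to 1.22 with 1 array left out. Between the ages, 0 to 1 of the 5 genes were called with 1 array left out, where 3.22% to 11.1% of all genes were. Against whole newborns 1 to 2 were called in each comparison, where 9.21% to 21.7% of all genes were in adult and 6.95% to 11.9% in day 1 bladder. With adult replicates 1 and 3 both left out, 0 of the 5 genes and 0 wider pathway genes were called by limma, where 1.29% of all genes were. Wider pathway calls between the ages numbered 11 with array weights, where 21.8% of all genes were called, and 4 to 7 with 1 array left out, where 3.22% to 11.1% were. They numbered 14 to 24 in adult and 11 to 18 in day 1 bladder against whole newborns over all alternatives, where up to 34% and 17.1% of all genes were called.

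Genes called lower or higher split by scaling. Between the ages 479 genes were higher and 591 lower, and 305 and 454 with median centring. In adult bladder against whole newborns the split was 824 higher and 1247 lower, 1689 and 824 with centring and 1215 and 1190 with quantile normalization. In day 1 bladder it was 439 higher and 878 lower, 1059 and 570 with centring and 752 and 802 with quantile normalization. Nos3 was not tested with the filter at the 70th percentile. No paired analysis was made, because the groups are separate bladders of different ages and a pool, and the labels pair no sample with another. With 1 newborn array and 3 bladders an age, dim genes such as Nos3 limit what could be detected.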

Other observations

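Several genes upstream of nitric oxide differed between the ages without overlap and without passing the test. Ddah2, the second hydrolase of asymmetric dimethylarginine, read 795, 597 and 618 in adult bladders and 1786, 1116 and 1684 in day 1 bladders (-1.12, adjusted p = 0.0626). Gch1, the first enzyme of tetrahydrobiopterin synthesis, a cofactor of the synthases, read 378, 316 and 242 in adult bladders and 777, 662 and 659.6 in day 1 bladders (-1.07, adjusted p = 0.0886). Pts, the next enzyme of that route, read 4060, 4379 and 3683 in adult bladders and 2064, 2651 and 1652 in day 1 bladders (0.94, adjusted p = 0.0704). The second probe set of Gch1 ran the other way, at 980.4, 586 and 598 in adult bladders and 474, 482 and 371 in day 1 bladders (0.62, adjusted p = 0.323), and no direction is read for it. These genes were chosen after their values were seen, and without overlap between the ages were 32.3% of all genes tested.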
